A study of Homo sapiens with 16 samples.

Results

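The cytosolic ribosomal protein genes were followed through an RNA sequencing experiment on MCF10A cells. Members were taken by gene name, as the numbered RPL and RPS symbols (with an A or X ending where they have one) together with *RPLP0*, *RPLP1*, *RPLP2*, *RPSA* and *RPS27A*, and had to hold at least 10 counts in every library. This gave 77 of the 26475 genes in the count table, 31 of the small subunit and 46 of the large subunit. All 77 names that matched passed the minimum, and their lowest count in any library was 23.

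MCF10A is an immortalized, non-tumorigenic line of human breast epithelium. Cells on plates formed 4 groups of 4 libraries. Control cells were labelled DMSO, the vehicle, whereas the treatment protocol gives them ordinary medium changes with no collagen and names no vehicle for them. Collagen cells received DMSO and then medium with 0.05 mg/mL collagen I for 24 h. DDR1i cells received collagen with an inhibitor of DDR1, a receptor tyrosine kinase that binds collagen (DDR1-IN-1, 2 µM per the methods), and RUNXi cells received collagen with AI-10-104 (5 µM), which blocks the binding of RUNX transcription factors to their partner CBFβ. Inhibitors were present for 48 h, of which the last 24 h were with collagen; the sequencing methods give 48 h for the assay, without saying how long collagen was present. The medium with collagen also carried NaOH for polymerization, so collagen, this addition and a difference in vehicle or handling cannot be told apart in comparisons with the control, and all groups are 1 cell line. The labels do not say whether replicates were separate cultures, so p-values measure the spread between these samples, which may be technical.

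A ribosome joins a small subunit, which decodes the mRNA, to a large subunit, which forms peptide bonds and carries the exit tunnel for the new protein. Each ribosomal protein is needed in about equal number, and its genes are among the most actively transcribed of a growing cell. Most of their mRNAs start with a C followed by a run of pyrimidines, the 5′ terminal oligopyrimidine (TOP) tract, through which the mTORC1 kinase and the protein LARP1 set how well these mRNAs are translated and how stable they are.

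Total counts ran from 12184619 to 44332378 per library. Of the markers of MCF10A cells, the basal keratins *KRT5*, *KRT14*, *KRT6A* and *KRT17*, the basal transcription factor *TP63*, the epithelial *CDH1* and *EPCAM* and the mesenchymal *VIM* had counts in all 16 libraries, with *KRT5* between 6971 and 11592 CPM (the counts of each library scaled to a common total with TMM factors), while the endothelial marker *CDH5* and the luminal marker *PGR* had 0 counts in all 16. The endothelial *PECAM1* reached 2.40 CPM, with 0 counts in 2 libraries, and the luminal *ESR1* 1.56 CPM, with 0 counts in 6. The fibroblast marker *COL1A1* reached 6.35 CPM, with 0 counts in 1 library. Of the markers, *KRT14* was lower in DDR1i than in collagen (1594 to 2247 CPM against 3324 to 4757, log2 fold change -0.90 ± 0.13, adjusted p = 0.00123), than in control (-0.79 ± 0.10, adjusted p = 0.000616) and than in RUNXi (-0.97 ± 0.12, adjusted p = 6.76e-05). *VIM* was higher in DDR1i than in control (0.60 ± 0.09, adjusted p = 0.00228). Of the 8 MCF10A markers, 6 had lower estimates in DDR1i than in collagen, down to -0.91, and 2 higher. In that comparison *KRT14* alone passed the adjusted threshold, beside 0.775% of all genes called lower and 1.69% called higher. There 5 of the 8 had an unadjusted p under 0.05, for which the share over all genes was not computed. Such a p stood in 5 of 8 for DDR1i against RUNXi and against control, beside 6.19% and 5.13% of all genes. RUNXi against collagen had 0 of these 8 markers. Their part in the differences below was not tested. The 9 markers of other cell types summed to 18.01 to 31.6 CPM in control, 11.3 to 27.8 in collagen, 18.7 to 32.8 in DDR1i and 10.0 to 29.7 in RUNXi, with *CD68* alone between 8.53 and 28.7, and none of the 4 of them that were tested was called in either inhibitor comparison. All 4 had higher estimates than in collagen with DDR1i (0.14 to 2.84), and 3 of 4 with RUNXi (-0.08 to 2.71). For collagen against control 3 were tested, all with lower estimates (-2.44 to -0.22) and none called. Collagen replicate 3 was left out of every fit, as the study did after a principal component analysis, and its values are given beside the members called. Collagen replicate 4 held the highest share of ribosomal protein counts of all libraries, and the share in DDR1i replicate 1 stood above that of the other 3 DDR1i libraries.

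The start of the mRNA is shown for 11 members, because the TOP tract is the sequence feature that the family is known to share. They are members on which the results turn, with reference members of known roles. Each line gives 30 bases of GRCh37, 15 before the annotated start of the canonical GENCODE transcript and 15 from it on, 5′ to 3′ on the gene's strand. Capitals mark the C at the start and the pyrimidines that follow without a break, where the run has at least 5 bases.
RPL21 (chr13:27825680-27825709, plus strand): cggccccgcctctttCCTTTCggccggaac
RPL23A (chr17:27046988-27047017, plus strand): cccgtgggaacgagcattggagaccctttt
RPSA (chr3:39448196-39448225, plus strand): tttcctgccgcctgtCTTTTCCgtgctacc
RPL11 (chr1:24018281-24018310, plus strand): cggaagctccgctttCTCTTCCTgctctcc
RPL6 (chr12:112847395-112847424, minus strand): gccgggaccttaattCTCTTTCCCatcttg
RPL35A (chr3:197677046-197677075, plus strand): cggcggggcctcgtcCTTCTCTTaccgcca
RPS6 (chr9:19380220-19380249, minus strand): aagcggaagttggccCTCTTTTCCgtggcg
RPLP0 (chr12:120638900-120638929, minus strand): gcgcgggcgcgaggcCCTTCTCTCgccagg
RPL5 (chr1:93297582-93297611, plus strand): cgcaagggctgtggcCCTTTTCCCaccccc
RPL41 (chr12:56510402-56510431, plus strand): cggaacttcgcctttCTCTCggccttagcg
RPS28 (chr19:8386365-8386394, plus strand): tccccgaagcacgtgactcctctccgccag

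A C at the annotated start followed by 4 bases that were each C or T, read on the gene's strand only, stood in 58 of the 77 members (75.3%). It stood in 614 of 12204 other tested protein-coding genes (5.03%). With the motif allowed to begin within 5 bases of the start, which also takes in starts annotated a few bases off, the shares were 66 of 77 members (85.7%) and 21.9% of the other genes. The run had a median of 8 bases in members that held it and reached 15 bases. No run stands at the annotated start of *RPL23A* or *RPS28* in this window, which says nothing more than that. These are matches of letters, not measured starts. The members lie on 21 chromosomes.

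The members took between 7.01% and 10.0% of all counts. In the control the share was 7.33%, 7.999%, 7.78% and 7.01% in replicates 1 to 4. In collagen it was 8.66%, 8.85%, 7.84% and 10.0%, in DDR1i 8.84%, 7.23%, 7.94% and 7.63%, and in RUNXi 8.08%, 7.74%, 8.34% and 7.24%. Collagen replicates 1, 2 and 4 were thus above all control and RUNXi libraries, collagen replicate 3 lay inside the control range, and DDR1i replicate 1 lay inside the range of the other collagen libraries. The mean was 9.17% ± 0.735 (SD, n = 3) in collagen without replicate 3, against 7.53% ± 0.444 in control, 7.91% ± 0.683 in DDR1i and 7.85% ± 0.477 in RUNXi (n = 4 each). Because this is a score over the members, it was not tested. In bulk RNA, fewer cells of a type and less RNA per cell cannot be told apart.

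**Figure D1:**
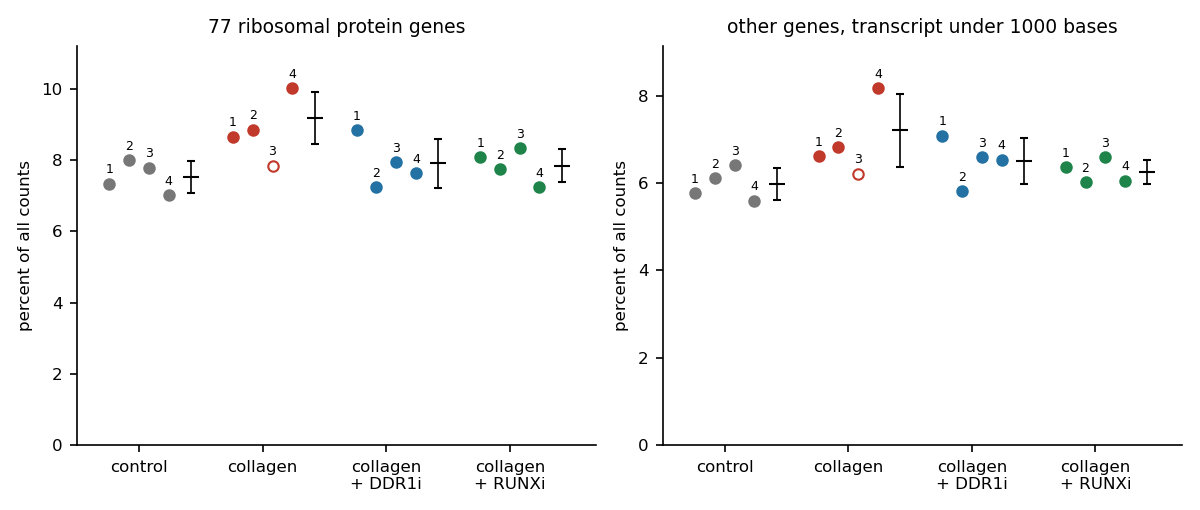
Percent of all counts in each library (vertical axis) on the 77 ribosomal protein genes (left) and on all other genes with a transcript under 1000 bases (right), by group. Points are libraries with their replicate number, the open point is collagen replicate 3, and bars are mean ± SD without it. In both panels collagen replicate 4 is the highest library, at 10.0% and 8.17%, and DDR1i replicate 1 is the highest of the DDR1i libraries.

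The small and large subunits moved together. Counts on small subunit genes divided by counts on large subunit genes stayed between 0.646 and 0.690 in all 16 libraries, with group means of 0.665 in control, 0.661 in collagen without replicate 3, 0.675 in DDR1i and 0.672 in RUNXi. Single members followed the family closely as well. The SD of log2 CPM over the 16 libraries had a median of 0.20 over the members, and a median of 0.10 after the mean of the other members in the same library was subtracted; it shrank in 75 of 77. The heat map of members by library shows collagen replicate 4 high across nearly the whole family. In that library 73 of 77 members were above the other 3 collagen libraries, and 62 of 77 were higher in DDR1i replicate 1 than in any other DDR1i library. In collagen replicate 3, 64 of 77 were below the other 3 collagen libraries.

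**Figure D2:**
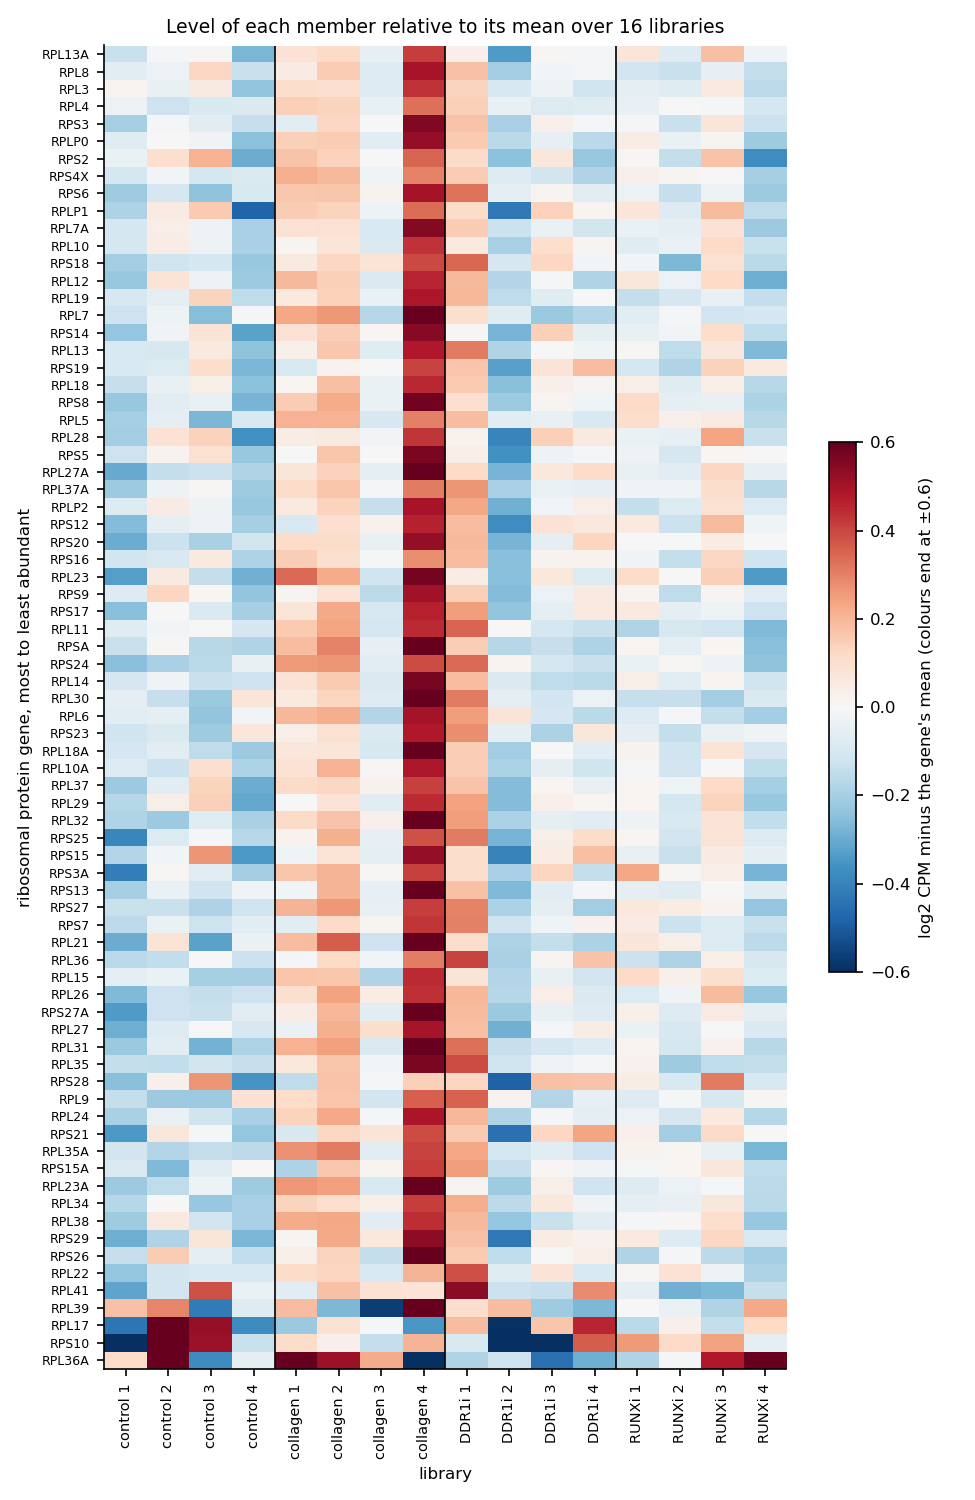
Log2 CPM of 76 of the 77 members (rows, most to least abundant) in each of the 16 libraries (columns, by group), minus the member's own mean over the libraries; red is higher, blue lower, and colours end at ±0.6. Whole columns shift together, most of all collagen replicate 4, and the 4 members with a mean under 100 CPM at the bottom follow the columns less closely.

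Per base of transcript, high levels were those of *RPS18* (mean 2787 CPM per kb) and *RPL8* (2753), and the lowest were those of *RPL36A* (6.32), *RPS10* (22.5) and *RPL17* (39.8). All 5 encode core proteins of the ribosome. *RPL36AL*, a paralog of *RPL36A*, had 140 to 260 CPM over the 16 libraries, beside 0.922 to 8.08 CPM for *RPL36A*. The 3 lowest are also the 3 for which the table holds a readthrough gene, *RPL36A-HNRNPH2*, *RPS10-NUDT3* and *RPL17-C18orf32*, each with 0 counts in all 16 libraries. Exons of such a gene on the same strand cover 43.8% of *RPL36A*, 84.0% of *RPS10* and 96.9% of *RPL17*. How the counter treats reads in shared exons is not given in the sources used here, and its part in these low levels was not tested. Per base of coding sequence *RPL13A*, chosen after its values were seen, was highest at 4921 CPM per kb. The table also lists 31 ribosomal protein pseudogenes, which held between 0.0446% and 0.0746% as many counts as the members; reads shared with such near copies make each single level uncertain.

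*RPL21*, *RPL7*, *RPL23A* and *RPSA* were lower in DDR1i than in collagen alone (edgeR quasi-likelihood test, Benjamini-Hochberg adjusted p under 0.05 over all genes tested). The 4 made up 5.19% of the members, and 0.775% of the 13548 genes tested were called lower. Across the family 75 of 77 members had a lower estimate, with a median log2 fold change of -0.26 (a fold of 0.837) and the middle of the family, from the lower to the upper quartile, between -0.32 and -0.20. The median of all genes tested was 0.00. In 15 members, or 19.5%, all 4 DDR1i libraries lay below collagen replicates 1, 2 and 4, which held for 6.71% of all genes. DESeq2 called 12 members lower, against 2.49% of all genes.

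*RPL21*, a large subunit protein, had 794, 898 and 1137 CPM in collagen replicates 1, 2 and 4, against 749.8, 614, 632 and 611 in the DDR1i libraries. The groups did not overlap, but DDR1i replicate 1 stood close to the lowest collagen library, and collagen replicate 3 had 639 CPM. The log2 fold change was -0.53 ± 0.12 (SE, adjusted p = 0.0196). *RPL7*, also of the large subunit, had 1586, 1616 and 2303 CPM in collagen and 1445, 1284, 1157 and 1194 in DDR1i. Its change was -0.53 ± 0.12 (adjusted p = 0.0233), and replicate 3 of collagen, at 1198 CPM, lay among the DDR1i values. *RPL23A* stands at the exit of the peptide tunnel, where the signal recognition particle docks. It measured 513, 508 and 726 CPM in collagen and 434, 369.8, 438 and 395 in DDR1i, with no overlap and a change of -0.51 ± 0.12 (adjusted p = 0.0249); collagen replicate 3 had 401. *RPSA*, a small subunit protein also known as the laminin receptor, had 1172, 1267 and 1645 CPM in collagen and 1144, 916, 936 and 907 in DDR1i. It differed by -0.48 ± 0.12 (adjusted p = 0.0351), and DDR1i replicate 1 lay just under the lowest of the 3 collagen libraries, while collagen replicate 3 had 996 CPM, inside the DDR1i range. *RPL23*, another large subunit protein, had the next smallest p and did not pass (-0.44 ± 0.12, adjusted p = 0.0561).

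The number of members called rested on single libraries. It was 0 without collagen replicate 4, without DDR1i replicate 3 or without DDR1i replicate 4, 1 without DDR1i replicate 2 and 11 without DDR1i replicate 1, and it was 0 with collagen replicate 3 included. Of all genes, 0.171% were called lower without collagen replicate 4 and 0.0225% with collagen replicate 3 included. The family median was -0.13 without collagen replicate 4.

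RUNX inhibition gave the same direction. Against collagen, 74 of 77 members had a lower estimate, with a median of -0.30 (fold 0.812; all genes tested 0.01). Of these *RPL23A*, *RPL7*, *RPL21*, *RPSA*, *RPL11*, *RPL6*, *RPL35A* and *RPL30* were lower beyond the threshold, or 10.4% of the members, against 1.46% of all genes tested. In 39 members (50.6%) all RUNXi libraries lay below collagen replicates 1, 2 and 4, against 8.79% of all genes, and DESeq2 called 24 members lower, against 3.90%. The 4 members called with DDR1i were among the 8. Both comparisons use the same collagen libraries, so this overlap is no independent evidence.

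*RPL7* had 1289, 1337, 1246 and 1253 CPM in RUNXi, all under the lowest of its 3 collagen values, and differed by -0.52 ± 0.12 (SE, adjusted p = 0.0222). *RPL23A* had 406, 418, 426 and 384 CPM and a change of -0.52 ± 0.12 (adjusted p = 0.0209), *RPL21* 734, 716, 659 and 625 CPM with -0.47 ± 0.12 (adjusted p = 0.0318), and *RPSA* 1041, 993, 1039 and 866 CPM with -0.47 ± 0.12 (adjusted p = 0.0322). In none of these did a RUNXi library reach the 3 collagen libraries. *RPL11*, which with *RPL5* and the 5S rRNA forms a particle that binds MDM2 and so raises p53 when ribosome assembly fails, had 1172, 1239 and 1434 CPM in collagen and 926, 981, 970.1 and 873 in RUNXi (-0.46 ± 0.12, adjusted p = 0.0325). Collagen replicate 3 had 979 CPM, inside the RUNXi range. With DDR1i *RPL11* had 1336, 1052, 976 and 959 CPM and did not pass (-0.25 ± 0.12, adjusted p = 0.277). Its partner *RPL5* did not pass with either inhibitor, at -0.24 ± 0.11 with both (adjusted p = 0.228 with DDR1i and 0.203 with RUNXi).

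*RPL6*, *RPL35A* and *RPL30* are named because they were called, after their values were seen. *RPL6* had 1117, 1132 and 1376 CPM in collagen and 921, 966, 882 and 844 in RUNXi (-0.43 ± 0.12, adjusted p = 0.0411). *RPL35A*, one of the genes mutated in Diamond-Blackfan anemia, had 686, 704 and 751 CPM in collagen and 577, 573, 550.3 and 469 in RUNXi (-0.40 ± 0.11, adjusted p = 0.0448). *RPL30* had 1016, 1065 and 1566 CPM in collagen and 885, 886, 847 and 919 in RUNXi (-0.47 ± 0.13, adjusted p = 0.0480). All 3 were without overlap, and all 3 had a value in collagen replicate 3 (862, 543 and 924 CPM) outside the range of the other collagen libraries.

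Here too the count depended on libraries. It was 0 without collagen replicate 4 or RUNXi replicate 4, 1, 2 and 3 without RUNXi replicates 3, 2 and 1, 13 without DDR1i replicate 1, 22 without collagen replicate 1, and 0 with collagen replicate 3 included. Of all genes, 0.299% were called lower without collagen replicate 4, 2.60% without collagen replicate 1 and 0.217% with collagen replicate 3 included. The family median was -0.16 without collagen replicate 4.

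**Figure D3:**
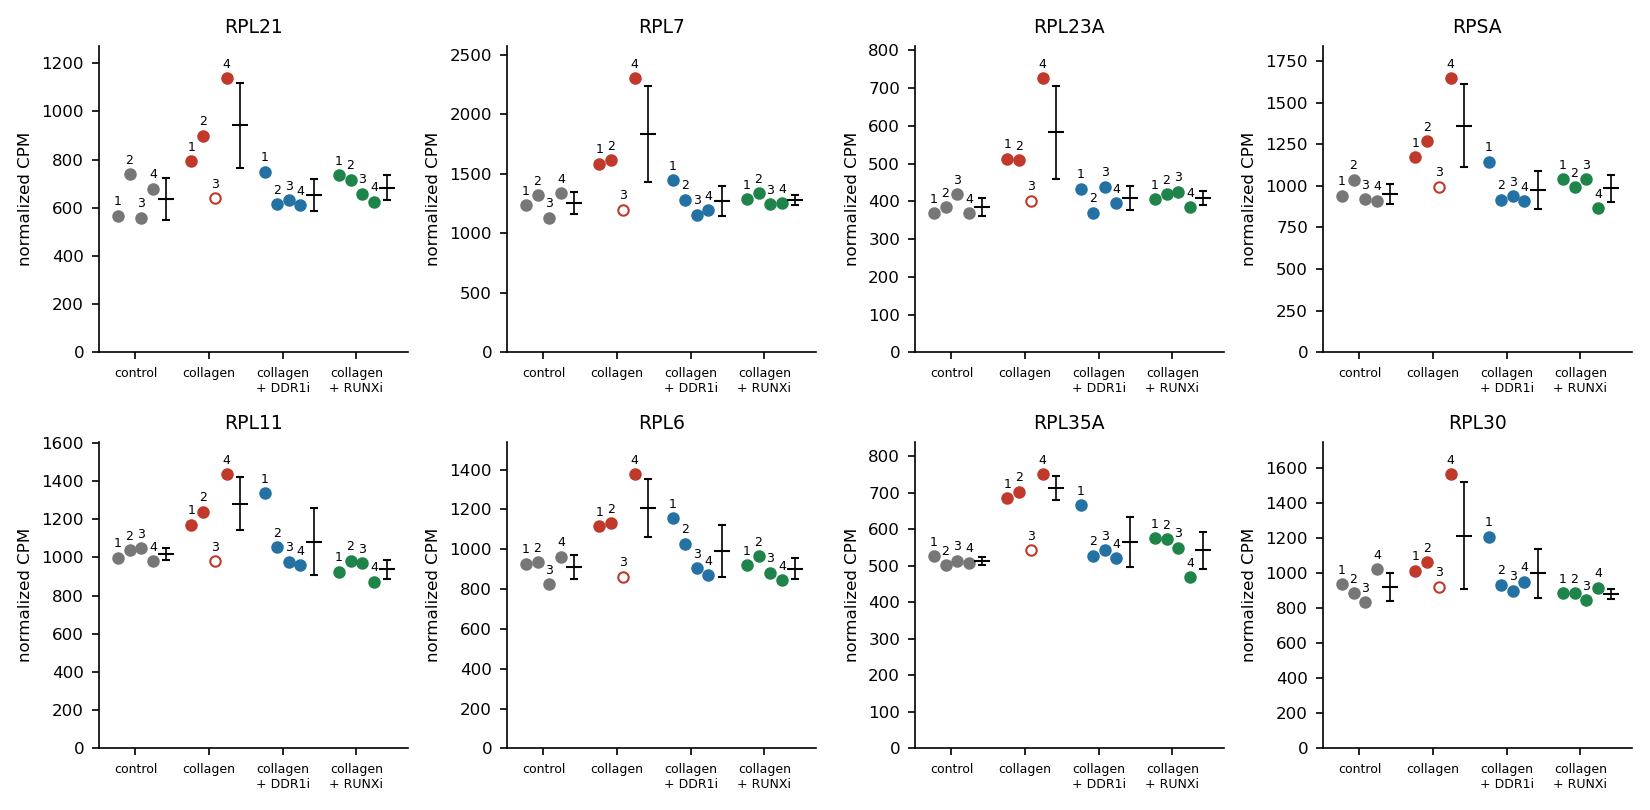
Normalized CPM (vertical axis, from 0) of the 8 members called lower with an inhibitor, by group. Points are libraries with their replicate number, the open point is collagen replicate 3, and bars are mean ± SD without it. Collagen replicate 4 is the highest of the 16 libraries for all 8, for example 2303 CPM for *RPL7*, and collagen replicate 3 lies at or near the control values.

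The other members of known role did not pass with either inhibitor. The acidic stalk, *RPLP0*, *RPLP1* and *RPLP2*, which recruits translation factors to the ribosome, had estimates of -0.33, -0.24 and -0.24 with DDR1i and of -0.33, -0.20 and -0.30 with RUNXi. *RPLP0* had 2553, 2567 and 3329 CPM in collagen, 2579, 2069, 2233 and 2065 in DDR1i and 2387, 2248, 2339 and 1998 in RUNXi, so DDR1i replicate 1 overlapped collagen and the RUNXi libraries did not. *RPS6*, the substrate of the S6 kinases, had 1986, 1992 and 2503 CPM in collagen, 2224, 1702, 1794 and 1698 in DDR1i (-0.22 ± 0.12, adjusted p = 0.333) and 1729, 1611, 1734 and 1526 in RUNXi (-0.40 ± 0.12, adjusted p = 0.0548). *RPS27A*, made as a fusion with ubiquitin, had estimates of -0.38 and -0.36 (adjusted p = 0.119 and 0.108). Among members with the smallest estimates was *RPS19*, the gene most often mutated in Diamond-Blackfan anemia, at -0.09 ± 0.13 with DDR1i and -0.15 ± 0.13 with RUNXi (adjusted p = 0.800 and 0.571). *RPL10*, a late-joining large subunit protein, had -0.19 and -0.22 and the X-linked *RPS4X* -0.28 and -0.28 (adjusted p between 0.140 and 0.427 over the 4 tests). *RPS18* and *RPL8*, with high levels per base of transcript, had -0.11 and -0.26 with DDR1i and -0.29 and -0.36 with RUNXi, none of which passed.

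Few members had a higher estimate, and none of these passed. *RPL17* had 20.2, 25.3 and 18.5 CPM in collagen, 27.0, 15.6, 26.7 and 32.7 in DDR1i and 21.1, 24.2, 21.4 and 25.7 in RUNXi, with estimates of 0.25 ± 0.21 and 0.11 ± 0.21 (adjusted p = 0.601 and 0.8294). *RPL41*, which encodes the shortest of the ribosomal proteins, had 183, 217 and 203 CPM in collagen, 280.1, 176, 174 and 234 in DDR1i and 185, 157, 159 and 174 in RUNXi. Its estimates were 0.10 ± 0.14 and -0.26 ± 0.14 (adjusted p = 0.787 and 0.303). *RPL36A* and *RPS10*, both under 25 CPM in every library, had 0.07 ± 0.48 and 0.02 ± 0.26 with RUNXi and -0.51 ± 0.48 and -0.37 ± 0.26 with DDR1i. Their counts are low and their errors wide.

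**Figure D4:**
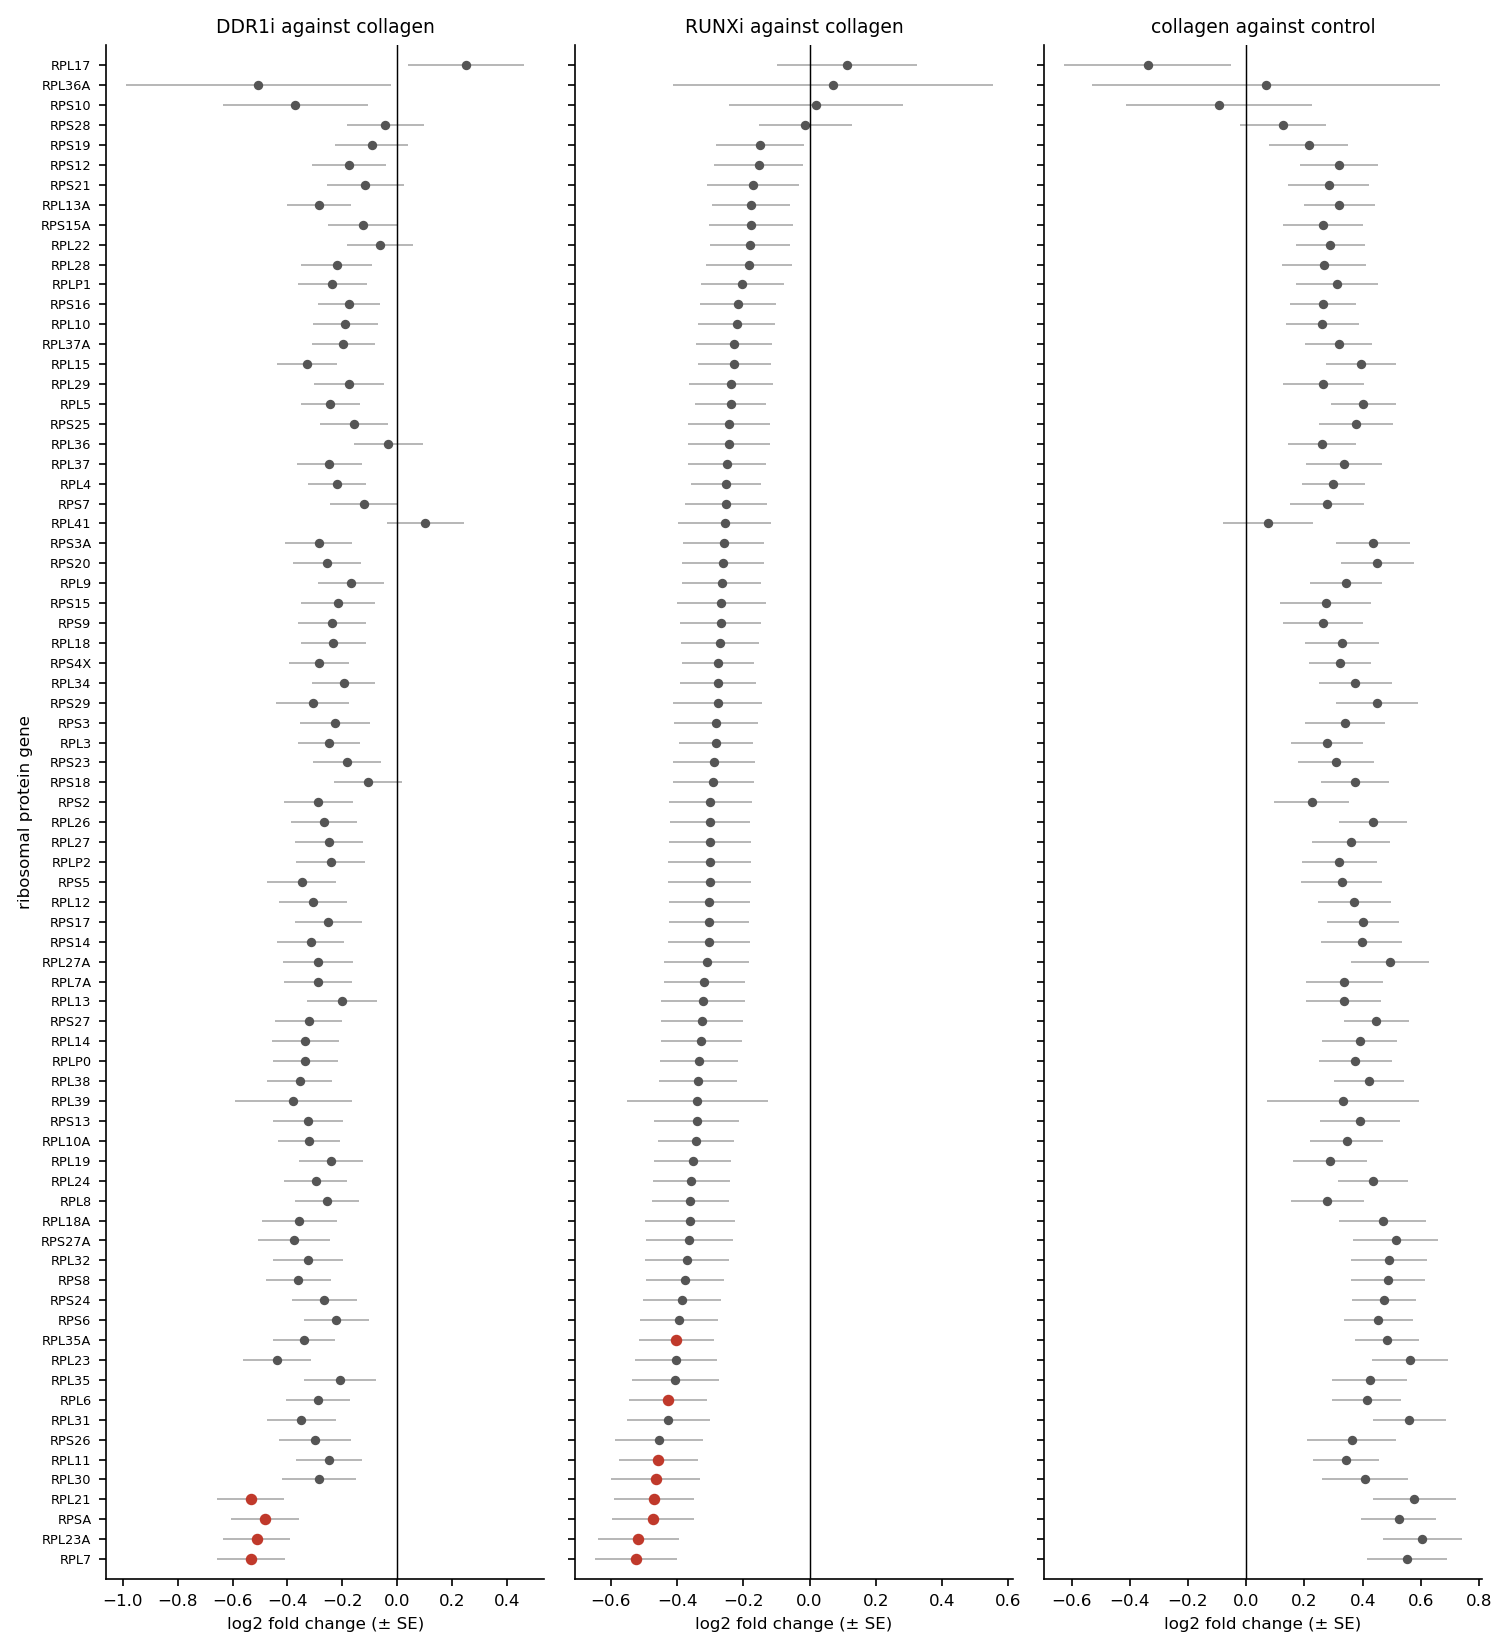
Log2 fold change (horizontal axis) ± SE of 76 of the 77 members (rows, in the order of the RUNXi estimate) for DDR1i against collagen, RUNXi against collagen and collagen against control; red points passed the adjusted threshold. Nearly all points lie left of 0 with the inhibitors (75 and 74 of all 77) and right of 0 with collagen (75 of all 77), most of them close to the family median; the comparisons share the collagen libraries.

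The inhibitors did not differ from each other in any member beyond the threshold. For DDR1i against RUNXi 0 of 77 members were called (0.568% of all genes tested), DESeq2 called 0 (0.989% of all genes), and 1 had an unadjusted p under 0.05 (6.19% of all genes). That member was *RPL41*, higher in DDR1i by 0.36 ± 0.13 on the log2 scale (adjusted p = 0.5002). The family median was 0.03, with quartiles of -0.01 and 0.08.

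Collagen without an inhibitor was compared with the control. Collagen, the added NaOH and a difference in vehicle or handling cannot be told apart here. Estimates were higher in 75 of 77 members, with a median of 0.35 (fold 1.27; all genes tested 0.01). No member passed the threshold in edgeR, nor did any gene (0% of 13092 tested), and the smallest adjusted p of a member was 0.114. At an unadjusted p under 0.05, 62 members were higher, against 6.42% of all genes, and 45 members (58.4%) had all 3 collagen libraries above all control libraries, against 6.45% of all genes. DESeq2 called 35 members higher, against 1.45%. *RPL23A*, with 368, 385, 419 and 369 CPM in the control, had an estimate of 0.61 ± 0.14 (adjusted p = 0.114), and *RPL35A*, with 526, 502, 514 and 509 CPM, one of 0.48 ± 0.11 (adjusted p = 0.114). Collagen replicate 3, not in the fit, had 401 and 543 CPM for these genes. The median was 0.23 without collagen replicate 4.

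With an inhibitor the members stood close to the control. For DDR1i against control 71 of 77 had a higher estimate, with a median of 0.10 (all genes 0.01), and for RUNXi against control 64 of 77, with a median of 0.06 (all genes 0.00). In both, edgeR called 0 members, against 0.212% and 0.401% of the 13213 genes tested, and DESeq2 called 0, against 0.492% and 0.817%. At an unadjusted p under 0.05, 10 of 77 members differed for DDR1i, all of them higher, against 5.13% of all genes. For RUNXi 0 members did, against 6.81% of all genes. *RPS18* (0.27 ± 0.10, adjusted p = 0.625) had the smallest p of the members in the DDR1i comparison.

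To see whether members departed from the family, each library was scaled to its own sum of member counts in place of all counts. No member was then called in any of the 6 comparisons by edgeR. The shares of all genes called on this scale were 5.09% for DDR1i against collagen, 7.95% for RUNXi against collagen, 0.362% for DDR1i against RUNXi, 2.31% for collagen against control, 0.0681% for DDR1i against control and 0.197% for RUNXi against control. The members with an unadjusted p under 0.05 numbered 6, 1, 1, 1, 0 and 0 in that order. Over all genes the shares were 22.5%, 25.6%, 4.27%, 24.6%, 5.08% and 5.53%. On this scale the members are centred near 0 by construction, and other genes take up the shift of the family. The shares of all genes are therefore no neutral background for the member counts. This scaling was not run in DESeq2. *RPL21*, the member with the smallest p in the comparison of DDR1i with collagen, had -0.26 ± 0.10 relative to the family (adjusted p = 0.127).

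Transcript length moved with these differences. Among 848 other tested genes with a transcript under 1000 bases, 72.6% had a lower estimate with DDR1i and 72.5% with RUNXi, with medians of -0.23 and -0.27, beside -0.27 and -0.30 for the 44 members under 1000 bases. Collagen against control gave 0.31 for such other genes and 0.36 for such members. In genes over 8000 bases the medians were 0.32, 0.33 and -0.35, the opposite direction. The share of counts on other genes under 1000 bases ran from 5.59% to 6.41% in control, 6.62% to 8.17% in collagen without replicate 3 (6.21%), 5.82% to 7.09% in DDR1i and 6.02% to 6.59% in RUNXi. The 17 members with transcripts over 2000 bases had medians of -0.22, -0.25 and 0.33 in the same 3 comparisons. Of other genes of 2000 to 4000 bases the medians were -0.03, -0.04 and 0.05, beside -0.20, -0.25 and 0.32 for the 13 members of that length. At 4000 to 8000 bases the medians were 0.15, 0.16 and -0.17 for other genes. The 4 members of that length had -0.27, -0.28 and 0.36. Members with long annotated transcripts can have a short coding sequence, such as *RPL15* with 612 of 2155 bases. Which transcript the cells make was not measured. With the trend over transcript length taken out of each library, 2 members were called lower with DDR1i and 0 with RUNXi, against 0.977% and 0.946% of all genes, and the family medians were -0.20, -0.15 and 0.059. With the trend over coding length taken out, an alternative chosen after seeing the data, no member was called (0.0977% of all genes lower with DDR1i and 0.407% with RUNXi) and the medians were -0.094, -0.096 and 0.064. RNA quality was not in the data used here, and its part in the length trend was not tested.

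**Figure D5:**
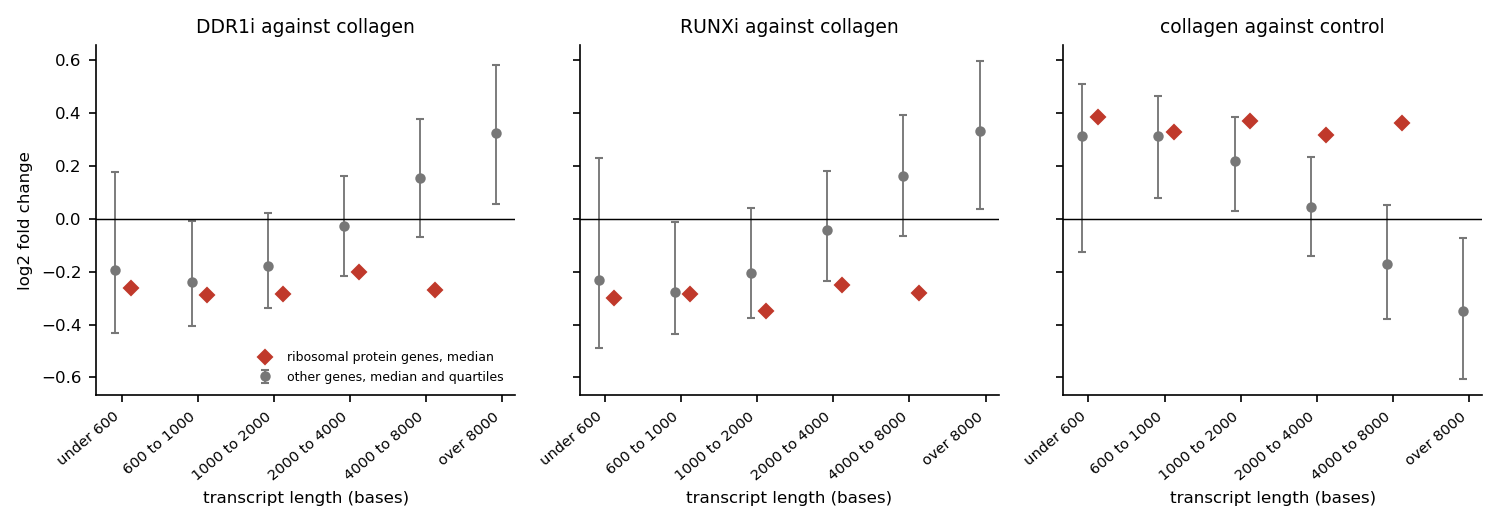
Median log2 fold change (vertical axis) by length of the canonical transcript in bases (horizontal axis) for other genes (grey, with quartiles) and for ribosomal protein genes (red), in 3 comparisons. Other genes move from -0.19 (under 600 bases) to 0.32 (over 8000) with DDR1i and the members stay between -0.29 and -0.20; collagen against control runs the other way, from 0.31 to -0.35.

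Members with and without the TOP motif at the annotated start had nearly the same median change. With DDR1i the 58 members with the motif at the start had a median of -0.26 and the 19 without it -0.25. With RUNXi the medians were -0.30 and -0.30. Within 5 bases of the start 66 of 77 members held the motif, so some of the 19 hold it slightly shifted. These sets are thus not cleanly apart, and dependence on the tract was not tested. The 614 other genes with the motif had medians of -0.06 and -0.03, beside 0.01 and 0.00 for other genes without it. In a list of 15 translation factors and other mRNAs of the TOP class, of which 13 had the motif at the start, 14 had lower estimates with DDR1i (median -0.22) and 13 with RUNXi (median -0.14), and none passed. *EEF1A1*, the elongation factor that brings tRNA to the ribosome, had -0.17 ± 0.11 and -0.14 ± 0.11 (adjusted p = 0.422 and 0.487); it was picked from the list after its values were seen.

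Other genes of ribosome synthesis were read from lists. Of all genes tested, 0.775% were called lower and 1.69% higher with DDR1i, and 1.46% lower and 2.59% higher with RUNXi. The trend over transcript length was not taken out of the values for these lists, and its part in them was not tested. *FAU*, whose product also ends up in the ribosome but whose name falls outside the rule, had -0.21 ± 0.14 with DDR1i and -0.27 ± 0.14 with RUNXi (adjusted p = 0.469 and 0.290) and did not pass. The mitochondrial ribosomal proteins, encoded by 77 genes of the table that were all tested, had lower estimates in 76 with DDR1i (median -0.34, 4 called lower) and in 77 with RUNXi (median -0.37, 10 called lower). *MRPL22* was called in both, at -0.53 ± 0.14 and -0.66 ± 0.14 (adjusted p = 0.0428 and 0.0130), as was *MRPL32* at -0.52 ± 0.13 and -0.47 ± 0.13 (adjusted p = 0.0268 and 0.0342). In collagen replicate 3, not in the fit, *MRPL22* had 59.7 CPM, inside the range of both inhibitors. *MRPL32* had 71.8 CPM there, below all libraries of both inhibitors. The list of mitochondrial ribosomal proteins was added after the lists of the plan. Of 53 assembly factors, 2 were called higher and 2 lower with DDR1i, and 0 higher and 2 lower with RUNXi. *RSL24D1*, which holds a place on the maturing large subunit, was lower with both (-0.62 ± 0.15 and -0.52 ± 0.15, adjusted p = 0.0238 and 0.0448). Its level in collagen replicate 3, not in the fit, was 102.3 CPM, inside the DDR1i range and below all RUNXi libraries. The rRNA methyltransferase *FBL* was lower with DDR1i (-0.45 ± 0.12, adjusted p = 0.0428) and *RSL1D1* with RUNXi (-0.43 ± 0.12, adjusted p = 0.0452). With the other inhibitor *FBL* had -0.36 ± 0.12 and *RSL1D1* -0.37 ± 0.12 (adjusted p = 0.0773 and 0.0994). In collagen replicate 3 *FBL* had 493 CPM, inside the DDR1i range, and *RSL1D1* 291 CPM, inside the RUNXi range. The nucleolar genes *MYBBP1A* and *URB1* were higher with DDR1i (0.49 ± 0.13 and 0.60 ± 0.16, adjusted p = 0.0418 and 0.0391). With RUNXi they had 0.42 ± 0.13 and 0.53 ± 0.16 and did not pass (adjusted p = 0.0662 and 0.0523). Collagen replicate 3, not in the fit, had 194.4 CPM of *MYBBP1A* and 95.05 CPM of *URB1*, both inside the DDR1i range. Of 14 genes of RNA polymerase I and its initiation factors, which transcribe the large rRNA precursor, the catalytic subunit *POLR1A* alone was called. Its estimate was 0.61 ± 0.14 with DDR1i (adjusted p = 0.0243) and 0.48 ± 0.14 with RUNXi, which did not pass (adjusted p = 0.0556). It had 67.5, 69.3 and 56.0 CPM in collagen replicates 1, 2 and 4 and 81.8, 88.1, 107.5 and 115.4 in DDR1i, with no overlap between these, but collagen replicate 3, not in the fit, had 115.1 CPM, above 3 of the 4 DDR1i libraries. Of 15 regulators of TOP mRNA translation and ribosome synthesis, 13 did not pass in either comparison. *RPTOR*, the mTORC1 scaffold, was higher with DDR1i (0.63 ± 0.16, adjusted p = 0.0304) and had 0.50 ± 0.15 with RUNXi (adjusted p = 0.0655). *TSC1*, an mTORC1 inhibitor, was higher with RUNXi (0.67 ± 0.19, adjusted p = 0.0437) and had 0.41 ± 0.19 with DDR1i (adjusted p = 0.251). Collagen replicate 3 had 68.0 CPM of *RPTOR*, inside the DDR1i range, and 24.5 CPM of *TSC1*, just under the RUNXi range. For DDR1i against RUNXi no assembly factor, RNA polymerase I gene or regulator passed (0.568% of all genes tested). Among 6 tested paralogs of the members none passed; *RPS27L*, a p53-induced paralog named after its values were seen, had -0.51 ± 0.15 and -0.49 ± 0.15 (adjusted p = 0.0571 and 0.0531).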

How the data were processed

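The authors deposited raw counts per gene for the 16 libraries, made with STAR on GRCh37 (hg19) per the methods; the counting tool, annotation and strand setting are not given in the sources used here. Library kits were TruSeq RNA. Members and gene lists were chosen with earlier results of these data known. Levels are TMM-scaled CPM (log2 with 0.5 added). Tests used edgeR 4.0.16 in R 4.3.3 (filterByExpr, TMM, robust quasi-likelihood fit, Benjamini-Hochberg adjustment over all genes tested, threshold 0.05), fitted on 11 libraries (collagen and both inhibitors), 7 (collagen and control) or 12 (control and inhibitors), without collagen replicate 3. DESeq2 1.42.0, which the study used, was an alternative, and limma 3.58.1 was loaded with edgeR. Transcript lengths and starts came from GENCODE v44 mapped to GRCh37 for 21999 genes by current (20676) or older (1323) symbol, and 95.9% of genes tested had a length. Replicate libraries differed by at least 18.3 times the counting variance, so none was a duplicate.

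Named members were the 5 lower and 5 higher (where present) with the smallest p per inhibitor, called members of other comparisons, the 3 highest and lowest per transcript length, and members of set roles. From other lists up to 2 called genes per direction were named. Alternatives changed the tool, size factors, filter, libraries, replicate block, fit and length or GC trends. The code was tested on simulated data. Figures used Python 3.11.15 and matplotlib 3.10.9. Results of 2 genes are not reported here.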

Additional observations from a re-analysis of the deposited data

Results flagged for a closer look

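A library stood apart from the other 3 of its group, by Dixon's ratio of its gap to the whole range of the group (its 95% limit for 4 values), in 4 of 92 groups of 4 values tested; chance flags about 1 in 20, or 4.6 of 92. In DDR1i, replicate 1 was high for *RPL21* (ratio 0.849), *RPSA* (0.875) and *RPL5* (0.833). In RUNXi, replicate 4 was low for *RPS4X* (0.863). The share of counts on ribosomal protein genes and the ratio of the subunits gave no such library.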

How the results depend on the processing

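With DDR1i against collagen the 4 members called became 12 in DESeq2, 11 with the GC trend removed, 2 with the transcript length trend removed, 0 with the coding length trend removed and 0 with collagen replicate 3 included; of all genes 2.49%, 2.62%, 0.977%, 0.0977% and 0.0225% were called lower in that order (0.775% as reported). Leaving out a library gave 0 to 11, against 0.0820% to 1.83% of all genes. With RUNXi the 8 called became 24 in DESeq2, 14 with no filter, and 0 with the transcript or coding length trend removed or with replicate 3 included, against 3.90%, 2.71%, 0.946%, 0.407% and 0.217% of all genes (1.46% as reported). Leaving out a library gave 0 to 22, against 0.299% to 2.60%. For collagen against control the 0 called became 35 in DESeq2, 15 with no filter and 20 with all 4 groups in 1 fit, against 1.45%, 0.587% and 0.816% of all genes called higher. The median with RUNXi was -0.15 and -0.096 with the transcript and coding length trends removed, and -0.40 to -0.16 over fits that left out a library, with -0.16 without collagen replicate 4. The median for collagen against control was 0.059 and 0.064 with the transcript and coding length trends removed. The medians against control turned to -0.090 (transcript length), -0.035 (coding length) and -0.041 (GC) for DDR1i and to -0.057 (transcript length) and -0.025 (coding length) for RUNXi. Why they moved was not tested. The replicate block gave 5 members called with DDR1i and 10 with RUNXi, against 1.40% and 2.11% of all genes, and 0 in the other 4 comparisons. Same-numbered libraries correlated by 0.008 to 0.289 in their deviations from the group means, all above 0. Among libraries of other groups, 13 of 16 libraries correlated best with one of their own number. The numbers may thus carry shared variation, but the labels do not say whether they mark pairs. The main fits took no pairs and leave such variation in the spread. No member called changed direction under any of the alternatives. Fits that left a library out kept group sizes of 2 or more. The 3 to 4 libraries in a group limit all tests.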
